A study of Mus musculus with 18 samples.

Results

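Cells that bound anti-F4/80 beads were compared between WT mice and mice carrying PPARg T166A, at day 6 after a skin injury. The comparison used 12 of the 18 RNA-seq libraries of the study, 6 per genotype, with genotype as the only factor. The 6 other libraries were bone marrow-derived macrophages (BMDM) of both genotypes, cultures of bone marrow cells differentiated with M-CSF. Here they served only to sort genes by their level in a culture that is nearly all macrophages. The wound cells came from dorsal skin that was cut up, digested with enzymes and passed over a column, where beads against F4/80, a surface protein of mouse macrophages, held back the fraction that was sequenced. For the bone marrow cultures the labels give the WT strain as C57BL/6J. The age and sex of the mice, whether the genotypes were littermates, and whether all cells or only macrophages carry the change, are not stated in the labels. Since nothing states that the 6 libraries of a genotype came from separate animals, p-values measure the spread between libraries, which may be partly technical.

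PPARg is a nuclear receptor that binds DNA as a heterodimer with a retinoid X receptor and is activated by fatty acids and their derivatives. It is the master regulator of fat cell formation, and in macrophages it is known for lipid uptake, lipid storage and the restraint of inflammatory genes. Wound macrophages clear debris and bacteria early after injury and later supply growth factors for new vessels and matrix. T166A names a receptor in which a threonine is replaced by alanine, so that this residue can no longer be phosphorylated.

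The residue named by the genotype can be located in the gene, and its codon is shown because the whole comparison rests on it. In the 505-residue form of mouse PPARg, the codon with the number given in T166A is a threonine codon, at chr6:115450959-115450961 of GRCm38 on the plus strand, in exon 4 of 7 of that transcript. In the 475-residue forms the same bases are codon 136, and the codon with the genotype's number encodes glutamine. The labels do not say which numbering is meant. The reference coding sequence from codon 156 to codon 176 of the longer form is joined from adjacent exons of the GENCODE M21 transcript, with the threonine codon in capitals.
Pparg: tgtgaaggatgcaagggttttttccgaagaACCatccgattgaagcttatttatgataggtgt
Read counts per transcript do not show a codon change, so the genotype labels could not be checked against these bases.

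Pparg itself was detected in every library. Its level was 26.22 to 29.67 CPM in WT (median 27.85) and 19.22 to 28.54 CPM in T166A (median 24.6), where CPM is the read count scaled to a common library size with TMM factors. The genotypes overlapped, and the difference did not pass the test (log2 fold change -0.19 ± 0.080 (SE), adjusted p = 0.0778 in edgeR). That p ranged from 0.0121 to 0.195 over the 24 alternative settings, and it was below 0.05 in 3 of them: with keratinocyte and fibroblast scores as covariates (0.0121), with the length trend removed and a replicate block (0.0487), and without T166A replicate 3 (0.0263). Of PPARg and its partners, 21 genes were tested, of which 3 rose, 3 fell and 15 were not called. Over all 15473 genes tested, 12.7% rose and 13.2% fell, so these counts were near the share of all genes. The list's median log2 fold change was -0.05 beside 0.01 over all genes. Rxra, the receptor's dimer partner, fell 1.22-fold (log2 -0.28, adjusted p = 0.000873). The coactivators Ncoa1 and Ncoa3 fell 1.37-fold and 1.28-fold. The members that rose were Ppara (log2 2.47), the related receptor of fatty acid oxidation, Ppargc1a (1.88), a coactivator of mitochondrial genes, and Prdm16 (1.25), a brown fat regulator. None of the 16 members at 5 CPM or more in BMDM rose, and 3 of them fell. Ppargc1a and Prdm16 are also in the brown adipocyte marker list used below. All 3 rises lost their call with an adipocyte marker score as covariate. Prdm16 stood at 1.599 to 3.048 CPM in WT (median 2.351) and 4.267 to 6.829 CPM in T166A (median 5.616).

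The libraries held 29357354 to 38774475 gene counts each, and the 50 most abundant genes took 15 to 16.9% of them. The first principal component carried 30.7% of the variance and separated the genotypes, with WT libraries between 19.94 and 27.66 and T166A libraries between -33.65 and -14.2. In edgeR's quasi-likelihood test, with p-values adjusted by Benjamini-Hochberg over all genes, 1963 genes were higher in T166A (12.7% of those tested) and 2048 were lower (13.2%), so 25.9% were called at an adjusted p under 0.05. Most changes were small. The median size among called genes was 0.368 on the log2 scale, and 201 genes (1.3%) rose and 172 genes (1.11%) fell by 2-fold or more.

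Genes were then separated by their level in cultured macrophages. The 9465 genes at 5 CPM or more in BMDM, called macrophage-expressed here, held 92.6% of the wound libraries' CPM, with 1127 higher and 1577 lower in T166A. Of these, 10 rose and 6 fell by 2-fold or more. The 3140 genes under 0.5 CPM in BMDM held 2.56% of the CPM and 169 of the 201 rises (84.1%) and 128 of the 172 falls (74.4%) of 2-fold or more. The remaining 2868 genes lay in between. A gene near 0 in BMDM can still be a gene of tissue macrophages: Cd209g, a lectin of resident macrophages, is in that class. At 20 and 0.1 CPM in place of 5 and 0.5, the macrophage-expressed genes past 2-fold numbered 5. The class of 207 of the 9465 macrophage-expressed genes rested on 1 BMDM library, since the other 5 averaged under 5 CPM. With the median of the 6 BMDM libraries in place of their mean, a setting added after the values were seen, 9369 genes were macrophage-expressed, of which 9 rose and 6 fell by 2-fold or more.

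**Figure D1:**
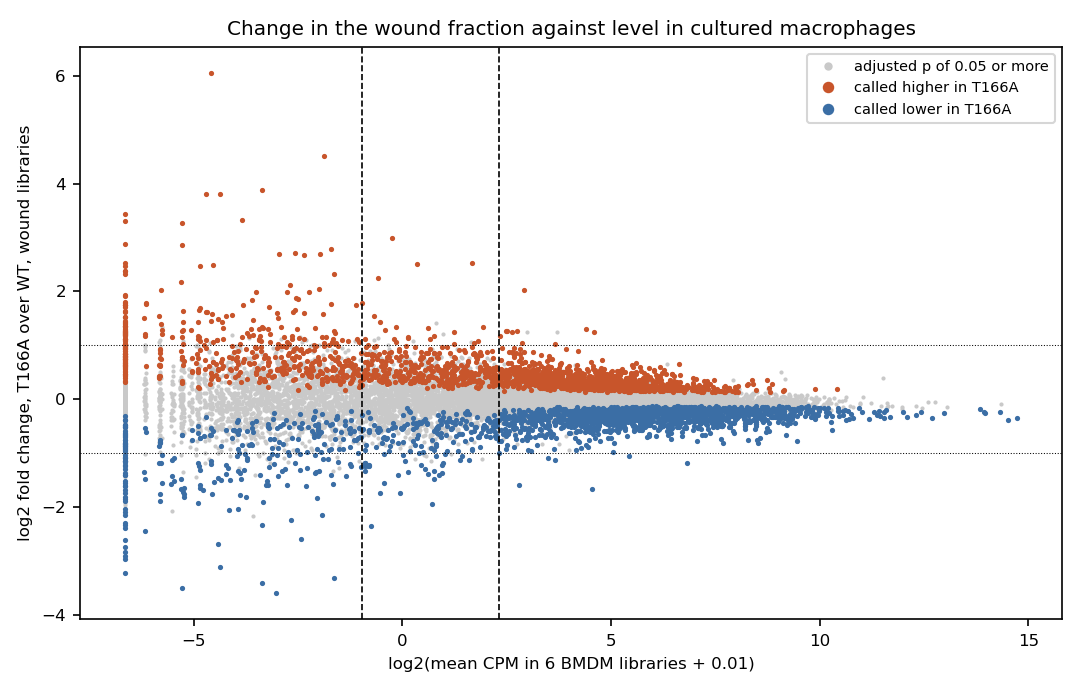
Each point is one of the 15473 genes tested, with its mean level in the 6 BMDM libraries on the x axis (log2 of CPM + 0.01) and its log2 fold change between the 6 T166A and 6 WT wound libraries on the y axis. Dashed lines mark 0.5 and 5 CPM and dotted lines 2-fold. The widest changes lie left of the first dashed line, where 169 genes rose and 128 fell by 2-fold or more.

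Macrophage markers were abundant in every library and lower in T166A. All 20 macrophage markers passed the filter, and they summed to 18344 to 22434 CPM in WT and 15404 to 17829 CPM in T166A, so the groups did not overlap. Of the 20, 17 fell and none rose, with a median log2 fold change of -0.32. Adgre1, which encodes the bead antigen F4/80, had 789 to 984.2 CPM in WT (median 874.8) and 629.8 to 718.3 CPM in T166A (median 691), a 1.29-fold fall (log2 fold change -0.36 ± 0.060 (SE), adjusted p = 7.99e-05). Csf1r, the receptor for M-CSF, fell 1.25-fold, Lyz2, the macrophage lysozyme, 1.27-fold, and Spi1, the transcription factor PU.1, 1.26-fold. The 3 markers not called were Mertk (log2 -0.10), Cd14 (-0.13) and Fcgr1 (-0.22). In bulk libraries such as these, fewer macrophages in the fraction and less of a transcript per macrophage cannot be told apart.

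A transcription factor of myeloid cells fell further than the markers' median. Irf8, a factor needed for the monocyte and dendritic lineages, had 163.1 to 211.2 CPM in WT (median 201.5) and 94.06 to 130 CPM in T166A (median 113.3), and the groups did not overlap (1.76-fold lower, adjusted p = 1.51e-06).

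Receptors of tissue-resident macrophages fell with them. Of 21 tested, 13 fell and none rose, with a median of -0.33. Siglec1, a sialic acid receptor, had 204.5 to 280.5 CPM in WT (median 241.8) and 135.6 to 158.8 CPM in T166A (median 153.5), a 1.59-fold fall (adjusted p = 1.72e-06). Cd209f and Cd209g, lectins of the DC-SIGN family, fell 2.61-fold and 2.98-fold. Cd209g stood at 16.19 to 30.07 CPM in WT (median 27.45) and 6.441 to 11.72 CPM in T166A (median 8.372), with no overlap. Because Cd209 genes are close copies of each other and the handling of multiply mapped reads is not given, counts between them are uncertain. Mrc1, the mannose receptor, and Cd163, the haptoglobin-haemoglobin receptor, each fell 1.26-fold, while Folr2 (log2 -0.15) and Lyve1 (0.19) were not called.

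Lysosomal genes formed the list with the highest share of falls among those of 30 or more members. Shorter lists had higher shares, with 17 of 20 macrophage markers and 18 of 22 immediate early genes lower. Of 31 tested, 24 fell, 1 rose and 6 were not called, with a median of -0.22, smaller than that of the macrophage markers. Gla, the alpha-galactosidase, had 225.1 to 250.4 CPM in WT (median 241) and 164.7 to 190 CPM in T166A (median 180.2) (log2 fold change -0.42 ± 0.050 (SE), adjusted p = 1.73e-06). The sialidase Neu1 fell 1.31-fold, the proton pump subunit Atp6v1b2 1.25-fold and Tfeb, a regulator of lysosome genes, 1.36-fold. The protease Ctsb and the sphingolipid activator Psap, among the most abundant members, fell 1.2-fold and 1.18-fold. Mitf, a relative of Tfeb that melanocytes also use, was the member that rose (1.25-fold, adjusted p = 0.00116).

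The largest falls among abundant inflammatory genes were those of Tnf and Nlrp3. Tnf, the tumour necrosis factor gene, had 709.6 to 789.9 CPM in WT (median 743.3) and 346.3 to 431.9 CPM in T166A (median 395.7). All 6 T166A libraries were far below all 6 WT libraries, a 1.91-fold fall (log2 fold change -0.94 ± 0.055 (SE), adjusted p = 1.25e-10). Nlrp3, the sensor of the inflammasome, had 573.3 to 620.8 CPM in WT (median 607.4) and 316.3 to 365.5 CPM in T166A (median 347.4), and the groups were as clearly apart (1.75-fold lower, log2 fold change -0.81 ± 0.048 (SE), adjusted p = 1.25e-10). Tlr2, a receptor for bacterial lipopeptides, fell 1.46-fold (adjusted p = 3.47e-07).

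The pro-inflammatory list did not move one way. Of its 33 tested members, 11 fell, 6 rose and 16 were not called, and the median was 0.00. The chemokines Cxcl2, Ccl3 and Ccl7 fell 1.43-fold, 1.53-fold and 1.48-fold. Cxcl2, which recruits neutrophils, had 5128 to 5862 CPM in WT (median 5446) and 3342 to 5020 CPM in T166A (median 3658). Among the rises, Csf1, which encodes M-CSF, had 323 to 362.6 CPM in WT (median 355) and 443.9 to 508.2 CPM in T166A (median 466.4), without overlap (1.34-fold higher, adjusted p = 8.81e-07). Ccl5, a chemokine for T cells and monocytes, rose 1.41-fold. Il6 rose 1.27-fold (adjusted p = 0.0377), a call that ended when any of 7 single libraries was left out (T166A replicates 2 and 6, WT replicates 1, 2, 4, 5 and 6, highest adjusted p = 0.0817). Il1b (log2 -0.13) and Nos2 (0.36) were not called.

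Genes of the NF-kB factors and their feedback loop fell more evenly. Of 23 tested, 15 fell and 1 rose, with a median of -0.29. Nfkbid, an atypical inhibitor protein of the family, had 143.9 to 155.8 CPM in WT (median 147.8) and 73.32 to 95.95 CPM in T166A (median 88.99) (1.7-fold lower, log2 fold change -0.77 ± 0.057 (SE), adjusted p = 2.24e-09). Zfp36, which destabilises Tnf mRNA, fell 1.43-fold, Nfkb1, the p105 precursor, 1.25-fold, and Tnfaip3, the deubiquitinase A20, 1.3-fold. Tnip1, a partner of A20, was the member that rose (1.18-fold, adjusted p = 0.00269). Nfkbia, the main inhibitor, was not called (log2 -0.10).

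Immediate early genes, which cells switch on within minutes of a stimulus, had the lowest median of the 26 function lists, -0.51. Of 22 tested, 18 fell and none rose. Klf4 had 138.8 to 184.1 CPM in WT (median 150.9) and 93.35 to 102.7 CPM in T166A (median 97.97), without overlap (1.58-fold lower, log2 fold change -0.66 ± 0.059 (SE), adjusted p = 4e-08). Fos, a subunit of AP-1, had 328.5 to 408.5 CPM in WT (median 364.3) and 215.9 to 281.9 CPM in T166A (median 251.4), also without overlap (1.47-fold lower). Maff, Atf3, Egr1 and Fosb fell 1.54-, 1.46-, 1.61- and 1.62-fold. Myc was not called (log2 0.00, adjusted p = 0.981).

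Heat shock chaperones also fell, with 10 of 14 lower, none higher and a median of -0.35. Hspa1a, the inducible Hsp70, had 816.5 to 929.7 CPM in WT (median 911.3) and 417.9 to 661.3 CPM in T166A (median 564.9), and the groups did not overlap (1.6-fold lower, log2 fold change -0.68 ± 0.082 (SE), adjusted p = 1.06e-05). Hspa1b, a near copy of it, fell 1.55-fold, and reads may be split between both. The co-chaperones Dnajb1, Dnaja1 and Hsph1 fell 1.37-, 1.39- and 1.51-fold, and Hspa8, the constitutive form, 1.33-fold. Hspd1, a mitochondrial chaperone, was not called (log2 -0.04).

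The promoters of both groups were read from RefSeq (GRCm38.p6), 250 bases before to 50 after each start, for 12006 of the 15473 genes tested. A heat shock element core, GAANNTTC, was present in 9 of the 11 heat shock chaperone promoters found, against 7.06% of all 12006 genes. Of the 7 called lower, 6 held it, and so did Hspb1, Hspd1 and Hspe1, which were not called. The core is its own reverse complement, so both strands are covered by one search. For NF-kB the letters GGNNTTTCC were searched on both strands and were in 8 of the 20 promoters of the NF-kB list, against 7.43% of all. Of the 12 called lower, 7 held them. A CRE, TGACGTCA, was in 2 of 17 immediate early promoters (3.28% of all) and an AP-1 site, TGANTCA, in 0 (7.05% of all). The letters GTCANAGGT, a PPAR-type repeat, were in 1 of 11 promoters of PPARg target genes (1.22% of all), and TCACNCCAC, a sterol element, in 1 of 19 promoters of fatty acid synthesis genes (1.41% of all). A match is a match of letters and not a bound site.

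Promoters of 4 genes that fell are shown, chosen after the matches were known, to place the letters beside the values. Each runs 5′ to 3′ over the 250 bases before the start, with matches in capitals. Hspa1a lies at chr17:34972157-34972406 on the minus strand, and Dnaja1 at chr4:40722218-40722467 on the plus strand; both hold the heat shock element core.
Hspa1a: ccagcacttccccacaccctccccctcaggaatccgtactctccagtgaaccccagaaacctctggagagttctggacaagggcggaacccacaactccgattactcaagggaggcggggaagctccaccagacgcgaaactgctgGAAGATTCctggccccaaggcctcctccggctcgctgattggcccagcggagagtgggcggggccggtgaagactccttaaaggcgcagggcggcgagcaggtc
Dnaja1: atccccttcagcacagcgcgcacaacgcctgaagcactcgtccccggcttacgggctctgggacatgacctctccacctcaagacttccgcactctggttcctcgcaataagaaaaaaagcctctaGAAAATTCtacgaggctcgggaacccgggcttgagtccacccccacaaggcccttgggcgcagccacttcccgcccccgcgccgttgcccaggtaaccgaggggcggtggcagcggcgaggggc
Tnfaip3 lies at chr10:19015411-19015660 on the minus strand, and Ier3, an early response gene of the NF-kB list, at chr17:35821463-35821712 on the plus strand; both hold the NF-kB letters.
Tnfaip3: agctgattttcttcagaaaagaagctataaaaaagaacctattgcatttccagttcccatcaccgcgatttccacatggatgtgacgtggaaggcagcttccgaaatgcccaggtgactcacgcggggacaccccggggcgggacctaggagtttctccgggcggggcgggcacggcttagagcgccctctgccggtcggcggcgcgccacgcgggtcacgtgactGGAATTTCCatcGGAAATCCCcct
Ier3: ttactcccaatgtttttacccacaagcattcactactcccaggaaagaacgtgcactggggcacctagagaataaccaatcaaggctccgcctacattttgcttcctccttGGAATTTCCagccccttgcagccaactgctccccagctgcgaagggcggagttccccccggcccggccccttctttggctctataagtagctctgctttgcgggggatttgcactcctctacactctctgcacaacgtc
The Hspa1a match starts 104 bases before the start and the Dnaja1 match 124 bases. Tnfaip3 holds 2 matches, 24 and 12 bases before the start of one of its 2 listed windows, and Ier3 holds 1, 139 bases before. Dnaja1 had 285.9 to 318.5 CPM in WT (median 297.7) and 181.4 to 247.9 CPM in T166A (median 215.2). Tnfaip3 had 2395 to 2731 CPM in WT (median 2506) and 1761 to 2258 CPM in T166A (median 1916), and Ier3 had 1306 to 1628 CPM in WT (median 1469) and 982.4 to 1311 CPM in T166A (median 1077). The groups did not overlap for Dnaja1 and Tnfaip3 and met at the edge for Ier3.

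Because the macrophage markers fell as a list, the falls above were also expressed relative to them. For the 45 genes called lower among the members of smallest p in each function list, the log2 level minus the mean log2 level of the 20 macrophage markers was taken in each library. The genes had been chosen for their falls in the same libraries, so these values are given with no test. The difference stayed negative for 39 of 45, and in 11 all T166A libraries lay below all WT libraries. Of all 15473 genes tested, 12.8% had a log2 fold change below the macrophage markers' median, and of macrophage-expressed genes 7.83%. These shares include genes that rose or were not called, and they use fold changes in place of the level per library. They are therefore no like base for 39 of 45, which follows in part from how the genes were chosen. No such share was taken over the genes called lower or for the absence of overlap. The difference was -0.63 for Tnf, -0.50 for Nlrp3, -0.46 for Nfkbid, -0.38 for Hspa1a, -0.32 for Maff and -0.35 for Siglec1. It was near 0 for Nfkb1 (-0.01), Atp6v1b2 (-0.01), Abca1 (-0.01), Plin2 (0.02) and Axl (0.01), whose falls were close to that of the marker list.

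**Figure D2:**
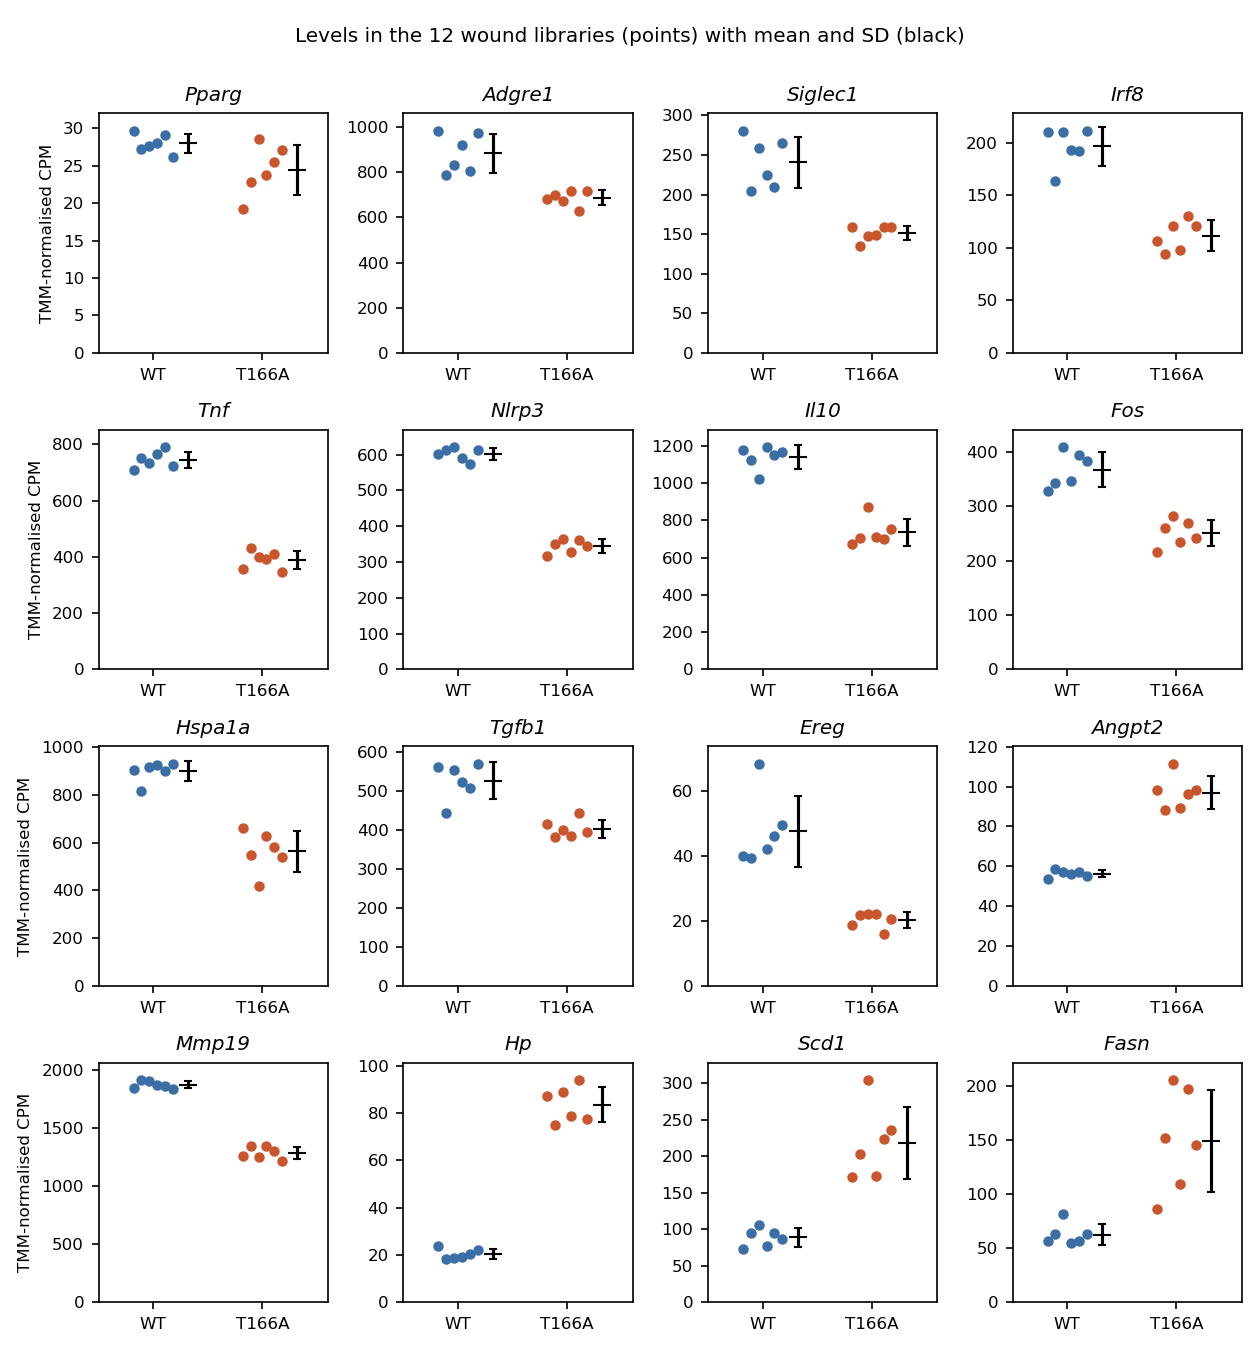
TMM-normalised CPM (y axes from 0) of 16 genes in the 6 WT and 6 T166A wound libraries, with 1 point per library and the mean ± SD in black. Tnf, Nlrp3, Il10, Fos and Hspa1a sit lower in all T166A libraries, Hp, Angpt2, Scd1 and Fasn sit higher in all of them, and Pparg overlaps.

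Genes tied to the reparative state of macrophages were more often lower than higher. Of the alternative activation list, 12 of 23 fell and 1 rose, with a median of -0.33, close to the -0.32 of the macrophage markers. Il10, the anti-inflammatory cytokine, had 1020 to 1191 CPM in WT (median 1159) and 671.9 to 871 CPM in T166A (median 707.9), without overlap (1.55-fold lower, log2 fold change -0.63 ± 0.060 (SE), adjusted p = 8.86e-08). Relative to the macrophage markers, the Il10 difference was -0.32 and the genotypes overlapped. Irf4, a transcription factor of interleukin-4 responses, fell 1.64-fold and Clec10a, a galactose lectin, 1.42-fold. Cd209b, another DC-SIGN relative, fell 2.46-fold. Socs2, a cytokine signal inhibitor, was the member that rose (1.24-fold). The classic interleukin-4 markers Arg1 (log2 0.33), Chil3 (0.68) and Retnla (-0.93) were not called, and Retnla ran from 9.994 to 69.99 CPM within WT alone.

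The wound growth factor list was divided. Of 30 tested, 11 fell and 6 rose, with a median of -0.12. The epidermal growth factor ligands Ereg, Areg and Hbegf fell 2.34-, 1.86- and 1.41-fold. Ereg had 39.47 to 68.53 CPM in WT (median 44.17) and 16.06 to 22.33 CPM in T166A (median 21.32), without overlap (log2 fold change -1.23 ± 0.134 (SE), adjusted p = 1.65e-05). Tgfa, a ligand of the same receptor, went the other way (1.47-fold higher, adjusted p = 0.00204). Tgfb1, which drives matrix formation, had 442.8 to 568.6 CPM in WT (median 538.1) and 380.2 to 442.3 CPM in T166A (median 397.3), just without overlap (1.31-fold lower). Igf1 and Gas6 fell 1.36-fold and 1.35-fold, Gdf15 1.8-fold, Vegfa 1.2-fold and Bmp2 1.32-fold.

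Among those that rose, Angpt2, a modulator of vessel stability, had 53.59 to 58.8 CPM in WT (median 56.5) and 88.1 to 111.4 CPM in T166A (median 97.12), without overlap (1.72-fold higher, log2 fold change 0.78 ± 0.057 (SE), adjusted p = 1.7e-09). Pgf and Pdgfb, ligands for vessel and pericyte receptors, rose 1.43-fold and 1.38-fold. Endothelial cells and pericytes are also known sources of Angpt2 and Pdgfb, and their markers rose in the same libraries (described below); their part in these rises was not tested. Gdf3, a macrophage target of PPARg, was not called (log2 0.02).

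Proteases and clearance genes gave further single genes. Mmp19, a metalloprotease of wound macrophages, had 1839 to 1915 CPM in WT (median 1871) and 1215 to 1351 CPM in T166A (median 1283) (1.46-fold lower, log2 fold change -0.54 ± 0.047 (SE), adjusted p = 2.37e-08). The genotypes did not overlap, while the whole protease list of 25 had 6 higher and 9 lower. Of 23 efferocytosis genes, which serve the uptake of dead cells, 10 fell, Itgb3 and Mfge8 rose, and the median was -0.12. Axl, a receptor for dying cells, fell 1.23-fold and the complement subunit C1qa 1.23-fold. The call of Mfge8 ended when T166A replicate 3 or 5 or WT replicate 1 or 4 was left out (highest adjusted p = 0.0684).

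Fatty acid synthesis was higher in T166A. Of 24 genes tested, 12 rose, 1 fell and 11 were not called, with a median of 0.29. Fasn, the fatty acid synthase, had 55.21 to 81.9 CPM in WT (median 59.88) and 86.49 to 205.7 CPM in T166A (median 149.2). The lowest T166A library was above the highest WT library (2.38-fold higher, log2 fold change 1.25 ± 0.214 (SE), adjusted p = 0.00152). Scd1, the stearoyl-CoA desaturase, had 72.53 to 106.5 CPM in WT (median 90.66) and 171.5 to 304 CPM in T166A (median 213.9), again without overlap (2.46-fold higher, adjusted p = 8.39e-05). Acaca, the acetyl-CoA carboxylase, rose 1.43-fold, Me1, a source of NADPH, 1.61-fold, and Srebf1, the lipogenic transcription factor, 1.14-fold. Acly, the citrate lyase, was not called (log2 0.02, adjusted p = 0.822). Fads1, a desaturase, was the member that fell (1.17-fold, adjusted p = 0.0243), a call lost without T166A replicate 2, WT replicate 1 or WT replicate 4 (highest adjusted p = 0.0863).

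The rises were wider among members that cultured macrophages barely express, a difference that was not tested. Among the 17 members that are macrophage-expressed, 6 rose and the median was 0.18. All 5 members under 0.5 CPM in BMDM rose, with a median of 1.43, among them Mlxipl (log2 2.70), the carbohydrate response factor ChREBP, Thrsp (2.18), Elovl3 (1.43) and Acacb (1.11). The first pair are best known from fat and liver. Mlxipl had few counts, with a median of 0.1966 CPM in WT and 2.049 CPM in T166A. In triglyceride and phospholipid synthesis, 9 of 28 rose and 6 fell. Gpd1, which makes the glycerol backbone, rose 5.79-fold and Gpam, the first acyltransferase, 2.03-fold, while Pcyt1a and Chka of phosphatidylcholine synthesis fell 1.42-fold and 1.31-fold.

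Fatty acid oxidation rose without a fall among its members. Of 21 tested, 15 rose and the median was 0.23, and 13 of the 19 macrophage-expressed members rose. Acadm, the medium-chain dehydrogenase, had 13.87 to 21.24 CPM in WT (median 16.59) and 24.07 to 34.82 CPM in T166A (median 25.68) (1.58-fold higher, log2 fold change 0.66 ± 0.100 (SE), adjusted p = 4.42e-05). Hadhb and Acaa2, which act late in the cycle, rose 1.4-fold and 1.52-fold, Cpt2 1.46-fold and the peroxisomal Ehhadh 2.55-fold. Cpt1a, the gate of mitochondrial import, was not called (log2 -0.04).

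Fat cell markers rose in the same libraries. Of 18 white adipocyte markers tested, 14 rose, 1 fell and the median log2 fold change was 1.42. Adipoq, the adipocyte hormone adiponectin, had 0.3771 to 1.506 CPM in WT (median 0.8977) and 6.679 to 13.64 CPM in T166A (median 9.565), a 10.8-fold rise (log2 fold change 3.44 ± 0.230 (SE), adjusted p = 9.45e-09). It was listed at 0 in all 6 BMDM libraries. Plin1, the coat protein of fat droplets, rose 7.38-fold, Plin4 3.14-fold, Cidec 5.76-fold, Pck1 9.98-fold and Car3 4.36-fold. The summed level of the list ran from 607.4 to 824.1 CPM in WT and from 704.7 to 1085 CPM in T166A, and none of the tested members was at 0 in all libraries of a genotype. Most of that sum was Fabp4, at 443.9 to 657.4 CPM in T166A, which macrophages and endothelial cells also express and which was not called (log2 0.01). Markers of brown fat rose as well, 9 of 12 with none lower and a median of 1.65. They summed to 33.42 to 45.38 CPM in WT and 63.43 to 116 CPM in T166A. Ucp1, the uncoupling protein, had 1.477 to 2.897 CPM in WT (median 2.268) and 10.5 to 41.45 CPM in T166A (median 21.13) (9.95-fold higher, adjusted p = 7.82e-05). Cidea and Cox8b rose 5.18-fold and 5.52-fold from low levels, with medians of 1.61 and 0.3727 CPM in WT and 8.59 and 2.275 CPM in T166A.

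Within T166A, Adipoq and both lipogenic enzymes had their extremes in the same libraries. T166A replicate 3 had the highest Adipoq, 13.64 CPM, and the highest Fasn and Scd1, 205.7 and 304.0 CPM. T166A replicate 1 had the lowest of all 3, with 6.679, 86.49 and 171.5 CPM. In WT the extremes did not coincide. WT replicate 1 had the highest Adipoq, 1.506 CPM, but the lowest Scd1, 72.53 CPM, with Fasn at 56.57 CPM. WT replicate 3 had the highest Fasn and Scd1, 81.9 and 106.5 CPM, with Adipoq at 1.082 CPM. A link between these levels was not tested. The mean log2 level of the adipocyte markers was 1.54 to 2.08 in WT and 2.77 to 3.64 in T166A, so the score did not overlap between genotypes. With that score as a covariate, 286 genes were higher and 561 lower, 2 of the 24 synthesis genes rose and none of the 21 oxidation genes rose. The falls shrank too, to 1 of 20 macrophage markers, 3 of 21 resident receptors, 3 of 23 alternative activation genes and none of the lysosomal or heat shock genes. Of the 234 genes named, 122 lost their call with this covariate while keeping their sign. Another 27, called with or without it, changed sign. Of these, Hspd1 and Cd36 were not called in the main fit, and all the others lost their call as well. Tnf, Nlrp3 and Irf8 were still called lower (edgeR adjusted p = 0.00034, 3.39e-05 and 6.26e-05). Fos, Maff, Zfp36 and Il10 also stayed called lower (edgeR adjusted p = 0.00018, 0.000164, 0.00152 and 0.00316). Fasn then had a log2 fold change of -0.47 with an adjusted p of 0.45. Since the score and the genotype nearly coincide, genotype and adipocyte RNA cannot be told apart for these genes.

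**Figure D3:**
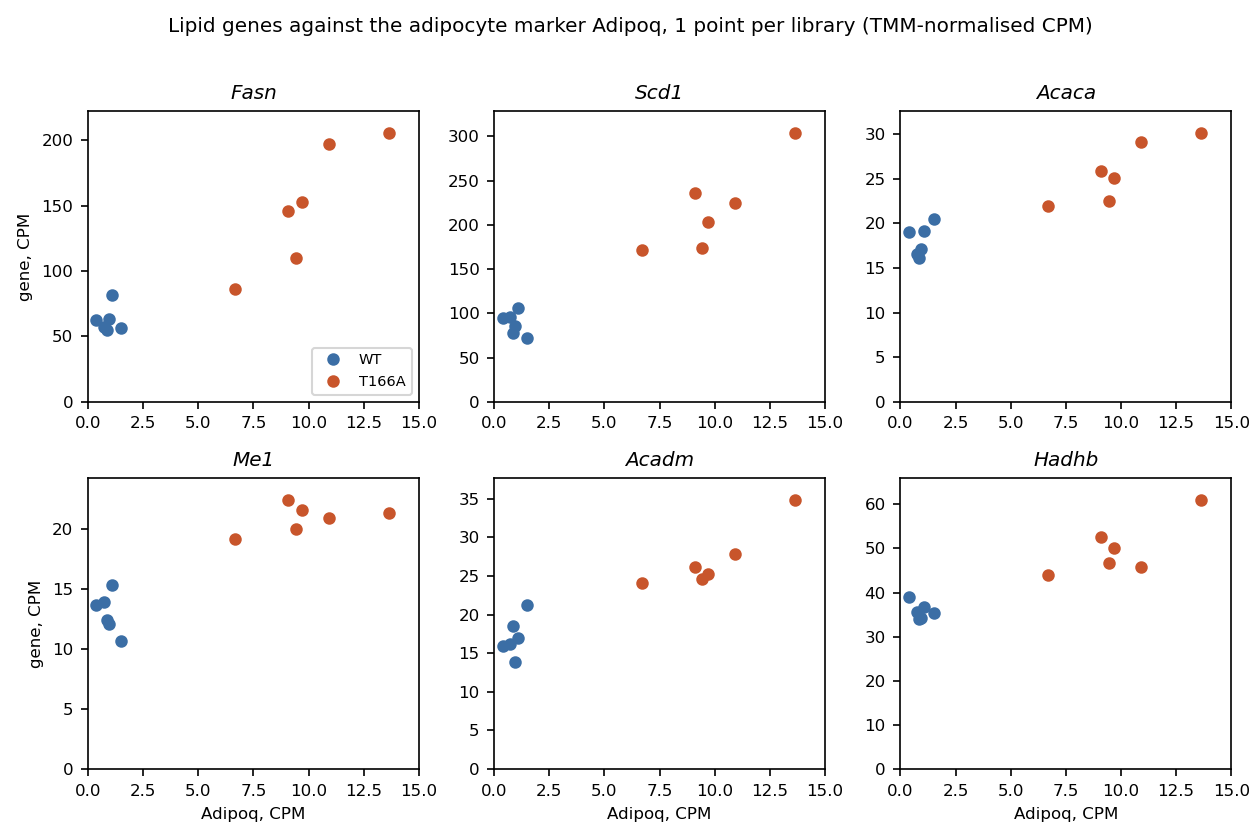
CPM of 6 genes of fatty acid synthesis (Fasn, Scd1, Acaca, Me1) and oxidation (Acadm, Hadhb) on the y axes against Adipoq on the x axes, 1 point per wound library. WT libraries sit between 0.3771 and 1.506 CPM of Adipoq and T166A libraries between 6.679 and 13.64 CPM, with no library between.

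Known PPARg target genes showed no common direction: of 20 tested, 4 rose, 4 fell and the median was -0.04. Fabp4 and Cd36, targets in macrophages and fat cells alike, did not pass the test (log2 0.01 and 0.08). Plin2, the droplet protein of macrophages, had 1722 to 2011 CPM in WT (median 1899) and 1391 to 1639 CPM in T166A (median 1554), without overlap (1.22-fold lower, log2 fold change -0.29 ± 0.056 (SE), adjusted p = 0.000435). The members that rose were Cidec, Pdk4 (2.05-fold), Acaa2 and Acsl1 (1.44-fold). Those that fell were Plin2, Nr1h3, Abcg1 and Aqp7, the last with adjusted p = 0.0463, a call lost without T166A replicates 1, 2, 4 or 6 or WT replicates 3, 4, 5 or 6 (highest adjusted p = 0.102).

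Cholesterol efflux genes under the receptor LXR were more often lower than higher, 7 against 2 of 15, with a median of -0.17. Nr1h3, which encodes LXR alpha, had 28.87 to 40.56 CPM in WT (median 34.54) and 20.44 to 25.15 CPM in T166A (median 23.49) (1.48-fold lower, log2 fold change -0.56 ± 0.080 (SE), adjusted p = 1.44e-05). The cholesterol exporters Abca1 and Abcg1 fell 1.25-fold and 1.4-fold and Apoe 1.31-fold. Apoc1 (2.12-fold) and Srebf1 rose. In cholesterol synthesis and uptake, 4 of 21 fell, among them Insig1 (1.34-fold), Fdft1 (1.2-fold) and Sc5d, and Pmvk rose. The call of Sc5d ended without T166A replicates 1, 4, 5 or 6 or WT replicates 3 or 6 (highest adjusted p = 0.071). Of 21 genes of lipid-laden macrophages, 10 fell and none rose, with a median of -0.18, Trem2 among them (1.24-fold).

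Energy metabolism and proliferation changed by small steps. Of 37 respiratory chain genes, 10 rose and none fell, with a median of 0.12; Sdhb rose 1.18-fold and Uqcrc2 1.16-fold. Glycolysis had 8 of 23 higher, with Pfkl up 1.34-fold and Pgk1 1.22-fold, and 3 lower, namely Hk2 (1.34-fold), Eno2 and Slc2a3. The call of Slc2a3 ended without T166A replicates 1, 2 or 4 or WT replicates 2, 3 or 5 (highest adjusted p = 0.0664). Cell cycle genes had 11 of 34 higher and a median of 0.29, with Top2a 1.36-fold and Plk1 1.82-fold higher; Pcna and E2f1 fell. Which cells of the fraction were cycling is not shown by these data. Of 33 interferon response genes, Xaf1 (1.2-fold) and Ddx58 rose and none fell, and the abundant Ifit2 was not called (log2 0.32). Ddx58 was not called without T166A replicates 2, 3, 4 or 6 or WT replicates 2, 4 or 5 (highest adjusted p = 0.0825). MHC class II genes had 6 of 10 lower, with H2-Aa and Cd74 down 1.16-fold and 1.17-fold.

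**Figure D4:**
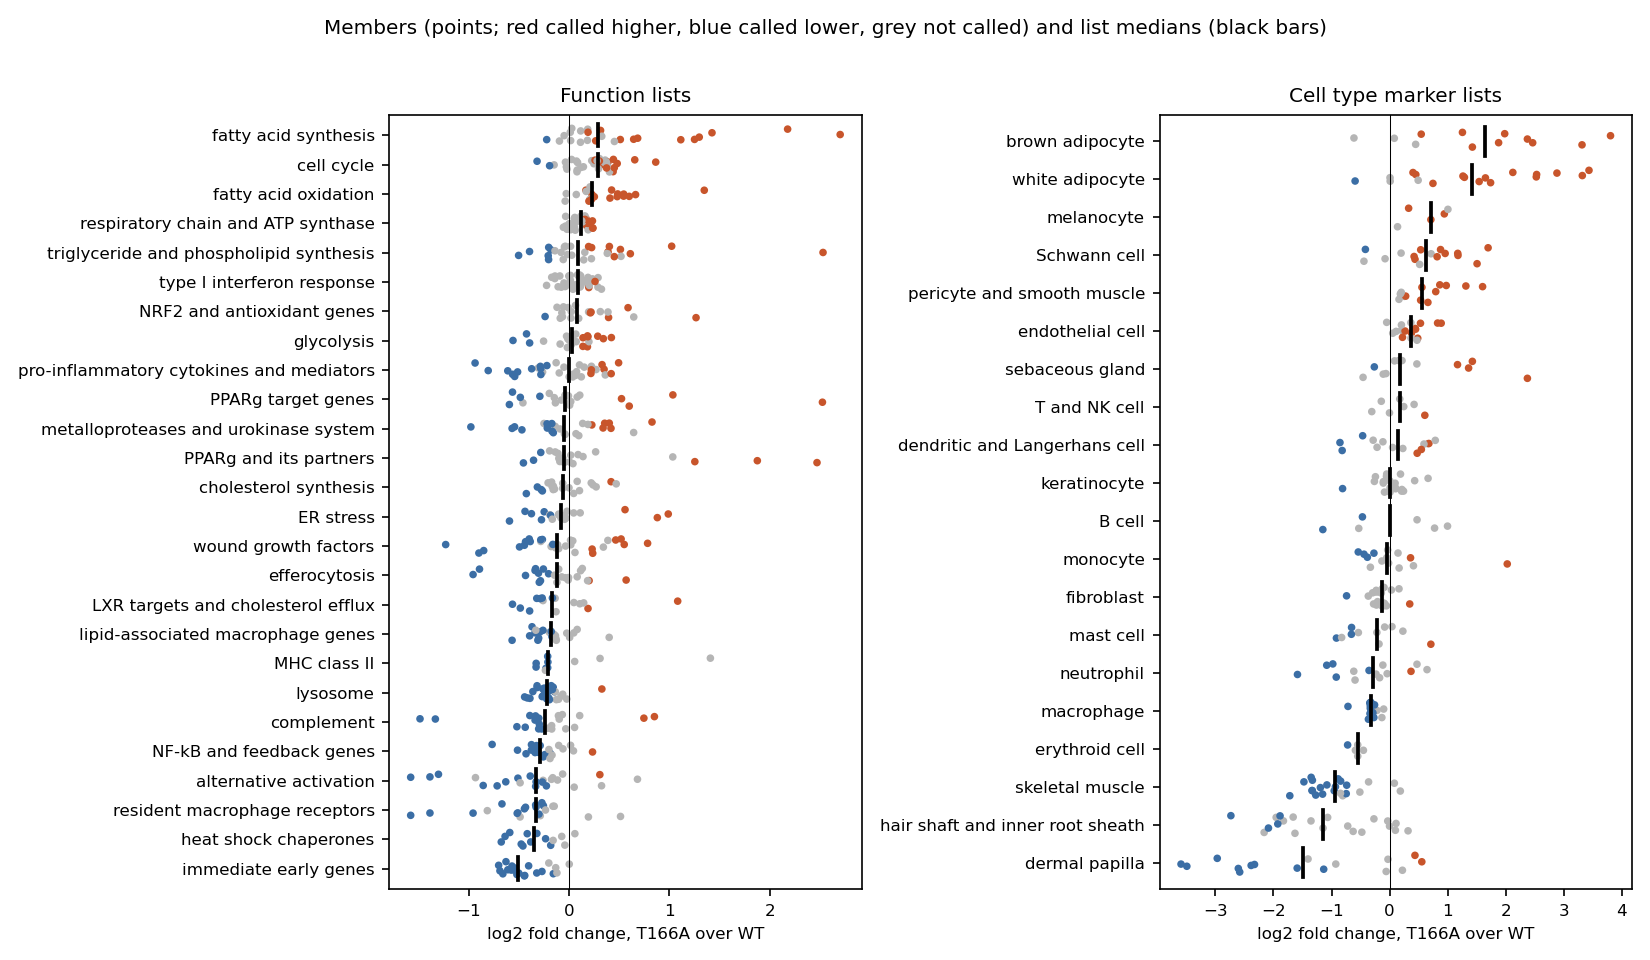
Log2 fold changes of the tested members of 26 function lists (left) and 20 cell type marker lists (right), ordered by their median (black bars), with members called higher in red, called lower in blue and not called in grey. Immediate early genes have the lowest function median at -0.51 and fatty acid synthesis the highest at 0.29, and cell type medians run from -1.50 in dermal papilla to 1.65 in brown adipocyte.

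Among macrophage-expressed genes, the rule for single genes put Hp first by its rise. Hp encodes haptoglobin, which binds free haemoglobin and is made by liver, fat and some myeloid cells. Its level was 18.23 to 23.67 CPM in WT (median 20.01) and 75.09 to 93.89 CPM in T166A (median 82.97), a 4.08-fold rise with groups far apart (log2 fold change 2.03 ± 0.073 (SE), adjusted p = 6.14e-15). Its place in the class rests on BMDM WT replicate 1, at 21.78 CPM; the other 5 BMDM libraries averaged 4.736 CPM and the median of all 6 was 5.075 CPM. Scd1, Fasn and Gpam were also among the first 10. The mitochondrial Chchd10 and Coq8a rose 1.93-fold and 1.83-fold. Clu, which encodes the chaperone clusterin, rose 1.83-fold, but it was counted as macrophage-expressed through BMDM T166A replicate 3 alone, at 26.7 CPM against an average of 1.707 CPM in the other 5.

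Among macrophage-expressed genes, the largest falls by the same rule were those of Hpgd and Cd28. Hpgd, the enzyme that inactivates prostaglandins, had 5.83 to 8.011 CPM in WT (median 7.024) and 2.373 to 3.578 CPM in T166A (median 3.308), without overlap (2.26-fold lower, log2 fold change -1.17 ± 0.132 (SE), adjusted p = 8.36e-07). Cd28, better known as a T cell costimulator, had 9.085 to 16.3 CPM in WT (median 12.49) and 5.195 to 7.335 CPM in T166A (median 6.032) (2.06-fold lower). It was detected at 43.05 CPM in BMDM. Amz1, a metalloprotease-like gene, and Tm4sf19, a tetraspan gene of osteoclasts and macrophages, fell 1.93-fold and 1.9-fold. Tm4sf19 averaged 4.742 CPM in BMDM without its highest library, WT replicate 1, and its median was 5.966 CPM. Fam83f and Cdkn1c, an inhibitor of the cell cycle, fell 1.85-fold and 1.81-fold.

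Among abundant genes under 0.5 CPM in BMDM whose genotypes did not overlap, the largest rise was that of Itih4, an acute phase protein gene, with 0.8029 to 2.043 CPM in WT (median 1.309) and 15.04 to 26.78 CPM in T166A (median 19.08) (14.7-fold higher, log2 fold change 3.88 ± 0.196 (SE), adjusted p = 1.56e-09). It was followed by Adipoq, Pck1, Ucp1, Cidec and Cidea, and by Cdo1, a cysteine dioxygenase of liver and fat (5.03-fold). On the other side, Pappa2, a protease that releases insulin-like growth factors, fell 3.5-fold and Tmprss2, an epithelial surface protease, 2.78-fold, beside Corin, Wif1, Cd209g, Ckm and Acta1.

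Markers of other cells in the bead fraction held many of the widest changes. Skeletal muscle markers fell, 16 of 22 with none higher and a median of -0.94, and summed to 124.6 to 162 CPM in WT and 80.09 to 98.11 CPM in T166A. Acta1, the muscle actin, had 31.8 to 45.34 CPM in WT (median 40.49) and 13.01 to 20.82 CPM in T166A (median 15.72), without overlap (2.51-fold lower, log2 fold change -1.33 ± 0.106 (SE), adjusted p = 7.37e-08). Ckm, the muscle creatine kinase, and the calcium pump Atp2a1 fell 2.52-fold and 2.41-fold.

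Markers of the dermal papilla, the signalling centre at the base of the hair follicle, fell further. Of 16 tested, 9 fell, Prom1 and Alpl rose, and the median was -1.50. Corin, a protease of the papilla, had 12.76 to 19.33 CPM in WT (median 16.41) and 0.3104 to 3.605 CPM in T166A (median 1.108) (12.1-fold lower, log2 fold change -3.59 ± 0.465 (SE), adjusted p = 0.000234). The Wnt pathway genes Wif1, Rspo3, Rspo4 and Sostdc1 fell 7.83-, 5.99-, 11.3- and 3.01-fold. The last 3 had few counts, with medians of 1.658, 3.409 and 3.84 CPM in WT and 0.2848, 0.3115 and 1.259 CPM in T166A. The list summed to 136.9 to 164.4 CPM in WT and 98.29 to 110 CPM in T166A, without overlap. Hair shaft markers varied widely between libraries, from 59.15 to 501.6 CPM in WT and from 14.17 to 505.1 CPM in T166A, and 4 of 21 fell.

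Vessel and nerve markers rose. Of 13 pericyte and smooth muscle markers, 9 rose and none fell, with a median of 0.56 and sums of 560.9 to 813.9 CPM in WT and 925.2 to 1238 CPM in T166A. Myh11, smooth muscle myosin, had 34.96 to 81.9 CPM in WT (median 49.18) and 112.4 to 145 CPM in T166A (median 129.4) (2.49-fold higher, log2 fold change 1.31 ± 0.196 (SE), adjusted p = 0.000604). Cnn1, Acta2 and Rgs5 rose 3.04-, 1.82- and 1.58-fold. Of 17 endothelial markers, 9 rose and none fell, with a median of 0.37; Emcn rose 1.77-fold, Vwf 1.85-fold, Pecam1 1.45-fold and Cdh5 1.36-fold. Of 16 Schwann cell markers, 10 rose and Pmp22 fell, with a median of 0.63; Sox10 rose 2.26-fold and Cdh19 3.24-fold. Their summed level did not rise, at 438.1 to 555.1 CPM in WT and 395.5 to 513.3 CPM in T166A; the sum includes Pmp22, which macrophages also express.

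Fibroblast and keratinocyte lists had few called members. Fibroblast markers summed to 10978 to 15367 CPM in WT and 9433 to 15484 CPM in T166A, with 1 of 20 higher (Fbln2) and 1 lower (Pi16). Col1a1 and Col3a1 were not called (log2 -0.10 and -0.09). Keratinocyte markers had 1 of 20 lower, Krt15, a marker of hair follicle stem cells (1.75-fold, adjusted p = 0.00392), and Krt14 was not called (log2 0.24). With keratinocyte and fibroblast scores as covariates, 1809 genes were higher and 1996 lower.

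**Figure D5:**
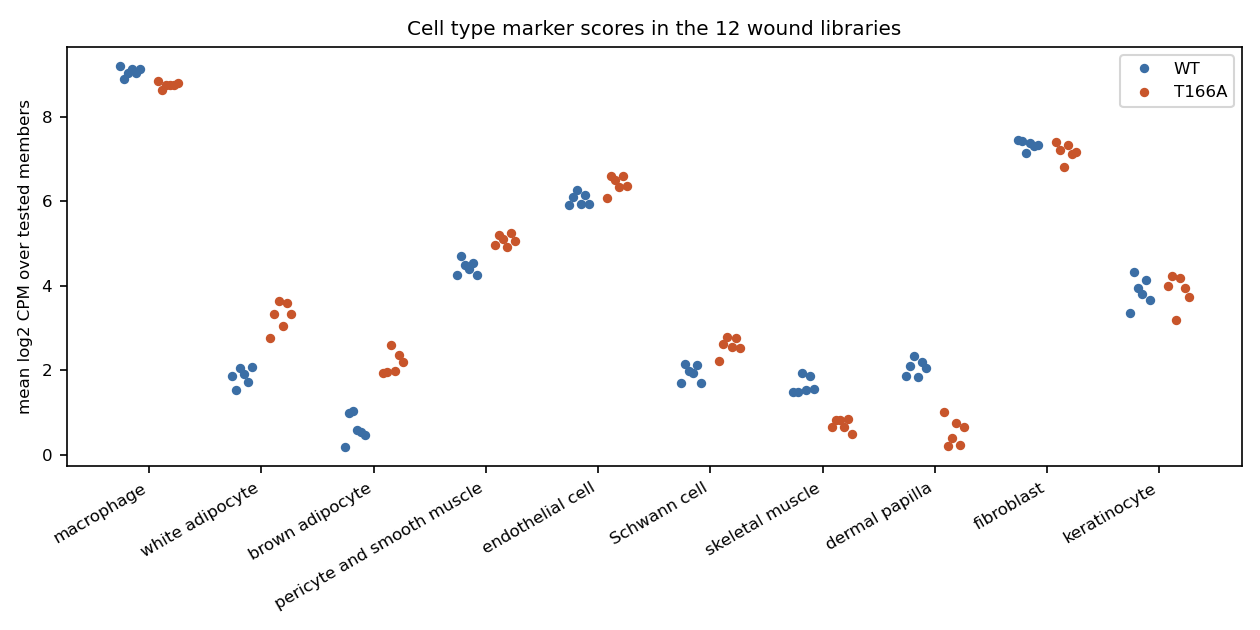
Mean log2 CPM over the tested markers of 10 cell types (y axis) in each of the 6 WT and 6 T166A wound libraries. Macrophage, skeletal muscle and dermal papilla scores are lower in every T166A library, both adipocyte, pericyte and Schwann cell scores are higher in every one, and endothelial, fibroblast and keratinocyte scores overlap.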

How the data were processed

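Each library gave counts per RefSeq transcript, deposited by the authors as raw whole numbers in a table per cell source. Per the submitters' processing notes, FastQC 0.12.1, cutadapt 4.4, HISAT2 2.2.1 and featureCounts were used with mm10; strand setting and treatment of multiply mapped reads are not stated there. The transcript with the highest summed CPM stood for its gene (26149 genes in skin; 117 of 45843 rows, with 0.187% of the counts, could not be matched to a gene and were left out). The labels' extraction protocol speaks of adipocytes, although the samples are labelled macrophages.

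Tests used R 4.3.3 and edgeR 4.0.16 (TMM, genes kept by filterByExpr at min.count 10 and min.total.count 15, robust quasi-likelihood test on genotype, Benjamini-Hochberg adjustment over 15473 genes, 10 residual degrees of freedom, biological coefficient of variation 0.133); the code was tested on simulated counts. Levels are CPM of TMM-scaled library size. A list's score is the mean of its members' log2 CPM (prior count 2). No 2 libraries held identical values, and the depth of 29357354 to 38774475 counts sets the counting precision. Alternatives were RLE factors, TMM on macrophage-expressed genes, other filters, DESeq2 1.42.0, limma-voom (limma 3.58.1), a replicate block, sums over transcripts, removal of the transcript length trend, covariates made from marker scores, and each library left out in turn.

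Members and lists were chosen with earlier results of these data known, and lists share members. Named by rule were Pparg, then, for called genes averaging 5 CPM or more in the wound libraries with no overlap between genotypes (predicted genes left out), the 10 largest rises and falls of macrophage-expressed genes and the 8 of genes under 0.5 CPM in BMDM, and in each list the 3 members of smallest adjusted p and the most abundant one. Of 234 genes named, 91 lie outside this rule and were chosen after their values were seen, as were the values relative to the macrophage markers, the classes from the BMDM median and the promoter motifs. Some genes are not reported here.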

Additional observations from a re-analysis of the deposited data

Results flagged for a closer look

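In each genotype, the library at either end of a gene's levels was compared with the rest by Dixon's ratio, its gap to the nearest library divided by the whole range, against Dixon's critical value for 6 libraries. Of 468 groups of 6 libraries (234 genes in 2 genotypes), 30 passed it, and chance marks about 1 in 20 groups. Each value in brackets is the ratio, followed by the library's CPM and the range of the 5 others.

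T166A replicate 1 was highest for Crym (0.685, at 1.325 CPM, others 0.05892 to 0.4583).

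T166A replicate 2 was lowest for Ctsb (0.626, at 6689 CPM, others 7195 to 7497), Fdft1 (0.653, at 91.2 CPM, others 97.91 to 101.5).

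T166A replicate 3 was lowest for Axl (0.672, at 154.4 CPM, others 166.6 to 172.5), Cnn1 (0.720, at 3.388 CPM, others 6.626 to 7.885), H2-Aa (0.692, at 1071 CPM, others 1165 to 1206). T166A replicate 3 was highest for Acadm (0.650, at 34.82 CPM, others 24.07 to 27.83), Ppargc1a (0.711, at 4.595 CPM, others 1.698 to 2.535).

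T166A replicate 5 was lowest for Nfe2l2 (0.673, at 238.9 CPM, others 269.7 to 284.7). T166A replicate 5 was highest for Amz1 (0.662, at 37.4 CPM, others 28.47 to 31.49), Cdkn1c (0.657, at 11.67 CPM, others 8.188 to 9.381).

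WT replicate 1 was lowest for Alpl (0.630, at 5.073 CPM, others 6.715 to 7.677). WT replicate 1 was highest for Cidec (0.676, at 3.782 CPM, others 1.509 to 2.246), Pmvk (0.723, at 9.9 CPM, others 7.75 to 8.345).

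WT replicate 2 was lowest for Ccl5 (0.652, at 150.4 CPM, others 183.2 to 200.7), Ccl7 (0.686, at 1286 CPM, others 1559 to 1683), Cd14 (0.689, at 3975 CPM, others 4319 to 4474), Cd209g (0.665, at 16.19 CPM, others 25.42 to 30.07), Hspa1a (0.743, at 816.5 CPM, others 900.7 to 929.7), Maff (0.774, at 273.4 CPM, others 323.1 to 337.7). WT replicate 2 was highest for Ace (0.679, at 121.7 CPM, others 90.2 to 100.3), Fbln2 (0.627, at 321.7 CPM, others 234.9 to 267.3), Itgb3 (0.659, at 225.3 CPM, others 162 to 183.6), Krt31 (0.694, at 7.826 CPM, others 2.183 to 3.91), Slc7a11 (0.727, at 342.3 CPM, others 228.2 to 259.3), Vwf (0.651, at 260.3 CPM, others 143.5 to 184.3).

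WT replicate 3 was lowest for Csf1 (0.698, at 323 CPM, others 350.6 to 362.6). WT replicate 3 was highest for Cox8b (0.634, at 0.8029 CPM, others 0.2101 to 0.4273), Ereg (0.651, at 68.53 CPM, others 39.47 to 49.62), Fasn (0.686, at 81.9 CPM, others 55.21 to 63.6).

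WT replicate 2 held 12 of the 30 marks. With it left out, 2089 genes were higher and 2090 lower in T166A, 18 of the 20 macrophage markers were lower and 10 of the 14 chaperones were lower (edgeR, adjusted p under 0.05). T166A replicate 3, the library with the most Adipoq, held 5 marks, and without it 1929 genes were higher and 2001 lower.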

How the results depend on the processing

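Over the 12 fits without 1 library each, 1703 to 2089 genes were higher and 1770 to 2090 lower, 173 to 246 rose and 141 to 180 fell by 2-fold or more, and the members called lower ranged from 17 to 18 for macrophage markers, 18 to 24 for lysosomal genes and 17 to 19 for immediate early genes. Higher members ranged from 11 to 13 in fatty acid synthesis and 13 to 15 in oxidation. Such a fit ended the calls of 17 of the 211 named genes called, with a highest adjusted p of 0.0531 to 0.102.

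The calls numbered 2105 higher and 2244 lower with DESeq2, and 2283 and 2313 with limma-voom. The replicate numbers do not pair the samples: same-numbered libraries correlated at -0.0454 to 0.0901, and 1 WT and 0 T166A libraries correlated best with their own number. With the replicate block, 2248 genes were higher and 2301 lower. TMM on macrophage-expressed genes gave 2142 and 1906.

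The adipocyte score moved most, and it nearly coincides with genotype. With it as a covariate, 286 genes were higher and 561 lower, and 128 macrophage-expressed genes and 161 genes under 0.5 CPM in BMDM were past 2-fold. Lower members then numbered 1 for macrophage, 0 for lysosome, 0 for heat shock, 3 for alternative activation, 3 for resident receptors, 4 for muscle and 1 for dermal papilla. Of the 234 genes named, 122 lost their call with the sign kept, while Tnf, Nlrp3, Irf8, Fos, Maff, Zfp36 and Il10 were still called lower. Genes that turned sign are counted apart from the 122. All of them except Hspd1 and Cd36 had been called in the main fit and lost that call too. Higher members numbered 2 for fatty acid synthesis, 0 for oxidation, 1 for white and 1 for brown adipocyte, 1 for pericyte, 0 for endothelial and 0 for Schwann cell. Log2 fold changes that turned sign were Il6 -0.34, Tnip1 -0.17, Hsph1 0.10, Hspa8 0.069, Hspd1 0.64, Pdgfb -0.26, Fasn -0.47, Acaca -0.046, Mlxipl -1.17, Thrsp -1.58, Acaa2 -0.31, Cd36 -0.81, Coq8a -0.16, Cdh5 -0.19, Pi16 0.16, Pfkl -0.005, Xaf1 -0.005, Dnaja1 0.15, Pdk4 -0.15, Krt31 2.64, Crym 1.30, Dsg4 2.27, Eno2 0.06, Cfd -0.82, Alpl -0.48, Ddx58 -0.19 and Mfge8 -0.19. With keratinocyte and fibroblast scores they were Fabp4 -0.19, Col1a1 0.16 and Col3a1 0.20. The cause was not tested.

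With at least 5 CPM in 6 libraries, 50 genes rose and 22 fell by 2-fold or more, 8 of them macrophage-expressed and 55 under 0.5 CPM in BMDM, and the lists kept 3 brown adipocyte and 5 Schwann cell rises and 3 muscle and 2 dermal papilla falls, since fewer genes were tested. Classes at 20 and 0.1 CPM left 5 macrophage-expressed genes past 2-fold. Depth limits the genes near 1 CPM.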

Other observations

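Complement genes were more often lower than higher in T166A, with 11 of 22 tested members lower, 2 higher and a median log2 fold change of -0.24. Masp1, a protease of the lectin pathway, fell 2.8-fold, C6, of the membrane attack complex, 2.52-fold, and the anaphylatoxin receptors C3ar1 and C5ar1 1.31-fold and 1.35-fold. Those that rose were Cd59a (1.8-fold) and Cfd (1.68-fold), which fat cells secrete. In the unfolded protein response, 6 of 22 fell and 3 rose; Ppp1r15a, a phosphatase subunit that restores translation, fell 1.51-fold, and Trib3, Asns and Chac1, targets of the ATF4 arm, rose 1.84-, 1.47- and 1.99-fold. Of 20 antioxidant genes under NRF2, 5 rose and 1 fell; Nqo1, a quinone reductase, rose 2.41-fold and Nfe2l2, which encodes NRF2, fell 1.18-fold. The calls of Slc7a11 and Txn1 in that list ended when single libraries were left out (Slc7a11 in 7 of 12 cases, Txn1 without T166A replicate 1 or 4).

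Markers of other leukocytes were also listed. Of 14 monocyte markers, Hp and Ace (1.28-fold) rose and Ccr2 (1.3-fold), F13a1 (1.21-fold), Nr4a1 and Cx3cr1 fell. Of 14 neutrophil markers, Acod1 rose and S100a8, S100a9, Mmp8, Csf3r and Stfa2l1 fell. Calls of Cx3cr1, S100a8, S100a9 and Mmp8 ended in 6, 9, 7 and 8 of the 12 fits without 1 library, with a highest adjusted p of 0.0861, 0.084, 0.0691 and 0.0859. Of 14 dendritic and Langerhans cell markers, 3 rose and 3 fell, with Xcr1 1.38-fold lower and Fscn1 1.39-fold higher. Of 11 mast cell markers, Kit rose 1.64-fold and Mcpt4 (1.89-fold), Tpsb2 and Cma1 fell. T and NK cells had 1 of 7 higher (Cd247), B cells 2 of 6 lower (Cd79a, Cd22), and erythroid cells 1 of 5 lower (Hbb-bt). Hair shaft falls were those of Krt31, Crym, Hoxc13 and Dsg4. Calls of Cd79a, Cma1, Hbb-bt and Krt31 ended in 7, 7, 9 and 10 of the 12 such fits, with a highest adjusted p of 0.0943, 0.0806, 0.0876 and 0.0809. In the sebaceous gland list Awat1, Elovl3, Cidea and Krt79 rose and Soat1 fell, and in the melanocyte list Tyrp1, Mitf and Kit rose out of 5 tested.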
